A study of Mus musculus with 58 samples.

Results

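Forestomach expression was compared between mice given the lower doses of indeno(1,2,3-cd)pyrene (IP) and mice given the vehicle alone. The comparison used every forestomach array whose label gave the vehicle, 12.5 mg/kg-bw/day or 25 mg/kg-bw/day, which were 14 of the 58 samples of the series. The arrays were picked by label alone, but the comparison itself was chosen with earlier results of these data known. Vehicle mice 1, 2, 3 and 5 received olive oil, mice 6 to 10 received 12.5 mg/kg-bw/day IP in olive oil, and mice 11 to 15 received 25 mg/kg-bw/day. All 14 were male Muta™Mouse of about 13 weeks, a transgenic strain that carries a bacterial lacZ reporter for mutation assays and that both the exposed and the vehicle mice share. They were gavaged daily for 28 days, and the forestomach was taken 72 h after the last dose. The study compared IP with other polycyclic aromatic hydrocarbons (PAHs) and asked whether these act through the same mechanisms. RNA came from random sections of each forestomach. Each sample was labelled with Cy5 and hybridised beside a Cy3-labelled reference pooled from 11 mouse cell lines, and every value below is the log2 ratio of Cy5 to Cy3 of a gene's brightest probe unless it is named as a difference between groups. Such a ratio compares 1 gene between mice and not 1 gene with another.

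The arrays came from 5 slides. Vehicle arrays lay in column 1, 12.5 mg/kg-bw/day arrays in column 2 and 25 mg/kg-bw/day arrays in column 3, so the effects of dose and array column cannot be told apart. Mice 8 and 13 shared the single slide without a vehicle array, and that slide was brighter, with median Cy5 signals of 205 and 209 against 86 to 107.5 on the other 12 arrays. On those 12 arrays Cy5 was well above background for 43 to 58.9% of probes, against 81.2% for mouse 8 and 48% for mouse 13.

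The rodent forestomach is lined by a stratified squamous epithelium that keratinizes and holds no glands. It meets the glandular stomach at the limiting ridge, and there the lining turns into a simple epithelium with surface mucous cells, acid-secreting parietal cells, pepsinogen-secreting chief cells and endocrine cells. Both compartments share a muscle wall that carries the neurons and glia of the enteric plexuses. PAHs enter epithelial cells and can activate the aryl hydrocarbon receptor (AhR), which induces cytochrome P450 genes of the Cyp1 family, and their DNA adducts can activate p53.

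The squamous markers were present in every forestomach. Krt5 and Krt14 encode the keratin pair of the basal layer, and Krt13 and Krt4 the pair of the layers above it; all were well above background on 14 of 14 arrays. Krt5 lay between 3.06 and 3.87 in all mice, and its difference between exposed and vehicle mice was -0.03 (SE 0.16). Krt13 lay between 4.59 and 5.90, with a difference of 0.05 (SE 0.24). Of 12 basal layer genes 9 were lower in exposed mice, with a median difference of -0.03, and of 21 genes of the keratinizing layers 8 were lower, with a median of 0.02. The labelled tissue was therefore present throughout, yet many gastric gland genes also stood at high levels in 7 of the 14 samples. Some were detected in other samples too: the chief cell gene Chia1 was well above background in 3 of 4 vehicle and 10 of 10 exposed mice.

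Parietal cells pump acid with the H+/K+-ATPase, whose subunits are encoded by Atp4a and Atp4b. Atp4a was 0.02, 6.45, 6.81 and 6.66 in vehicle mice 1, 2, 3 and 5. It was 6.48, 0.18, 0.15, 0.27 and 5.95 in mice 6 to 10, and 0.04, -0.13, 6.35, 0.48 and 6.80 in mice 11 to 15. Each group thus held mice near 0 and mice near 6, with no mouse in between. The higher mice were 3 of the 4 vehicle mice (2, 3 and 5) and 4 of the 10 exposed mice (6, 10, 13 and 15). The exposed mean of 2.66 ± 3.23 (SD, n = 10) was below the vehicle mean of 4.99 ± 3.32 (SD, n = 4), a difference of -2.33 (SE 1.71, 95% interval -5.98 to 1.32; exact permutation test, two-sided, p = 0.191). Within the slides, exposed minus vehicle values were 3.24, -6.42, -0.44 and -6.29 on slides 1 to 4, so slide 1, with vehicle mouse 1, ran against the others. Because these are bulk samples, fewer cells of a type and less RNA per cell cannot be told apart.

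Chief and mucous cell genes divided the mice in the same way. Cblif, which encodes gastric intrinsic factor, was 0.24, 8.64, 8.69 and 8.71 in the vehicle mice. It was 8.39, 0.82, 0.44, 0.17 and 8.00 at 12.5 mg/kg-bw/day and 0.19, 0.06, 8.26, 0.31 and 8.83 at 25 mg/kg-bw/day. The mice high in Atp4a were those high in Cblif, and its difference was -3.02 (SE 2.20, exact permutation p = 0.151). Chia1, an acidic chitinase, had the lowest difference among the glandular genes, -3.16 (SE 1.95), and Pgc, which encodes progastricsin, had -1.69 (SE 1.32). Neither passed a test.

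Among genes of surface mucous cells, some mice low in parietal and chief cell genes still carried signal. Gkn2, a secreted gastrokine, was 0.99, 8.28, 8.30 and 8.26 in the vehicle mice. It was 8.13, 4.94, 1.87, 1.34 and 7.95 at 12.5 mg/kg-bw/day and 3.09, 2.97, 8.35, 6.16 and 8.44 at 25 mg/kg-bw/day, so mice 7 and 14 lay between the groups of high and low mice. Tff1, a mucus-associated trefoil peptide, was 2.35 in vehicle mouse 1, 5.51 in mouse 7 and 5.57 in mouse 14, against 5.67 to 6.58 in the 7 mice high in Atp4a. Muc5ac, the main surface mucin, was 2.85 in mouse 14 and at most 1.82 in the other 6 low mice. Vehicle mouse 1 had the lowest Gkn2 and the lowest Tff1 of all 14. Of the 10 endocrine genes, 4 (Ghrl, Sst, Chga and Hdc) had the same 7 lowest mice. Sst, which encodes somatostatin, was 2.67 or more in the 7 high mice and at most 0.09 in the others, and Ghrl, which encodes ghrelin, differed by -1.09 between exposed and vehicle mice without passing the test. Gast, which encodes gastrin and is a gene of the antrum, was among the 6 that did not and was well above background in 1 of 4 vehicle and 3 of 10 exposed mice.

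**Figure D1:**
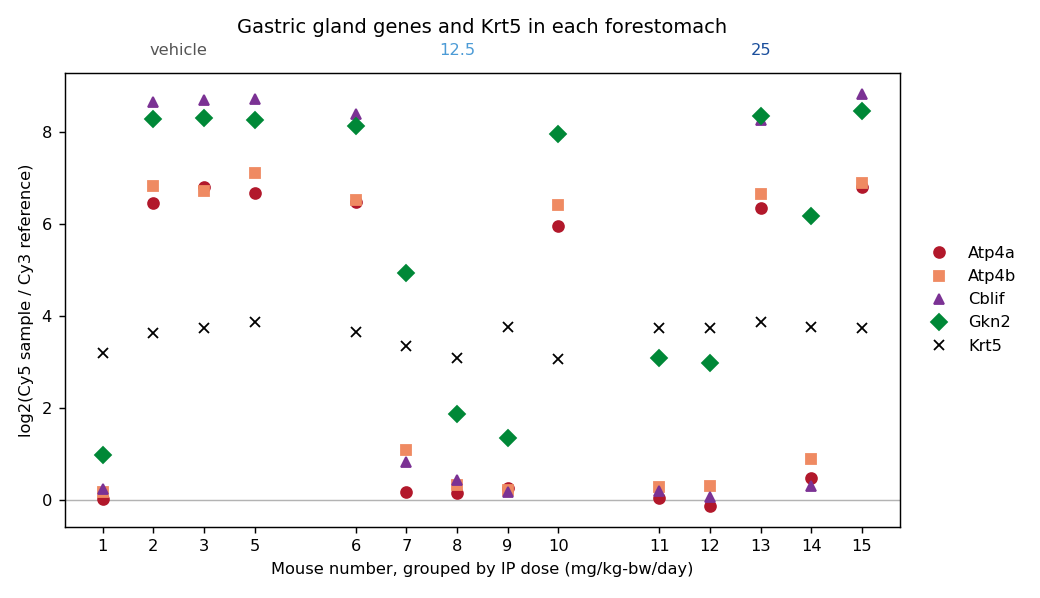
Log2 ratio of sample (Cy5) to reference (Cy3) for Atp4a, Atp4b, Cblif and Gkn2 (gastric gland) and Krt5 (squamous basal layer), 1 symbol per gene and mouse, with mice ordered by IP dose. The gland genes stand near 6 to 9 in mice 2, 3, 5, 6, 10, 13 and 15 and lower in the other 7, while Krt5 stays between 3.06 and 3.87 in all 14.

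The promoters of 3 glandular genes are shown because these genes carry the division between mice; each is the stretch of 250 bases before the transcription start in RefSeq (build GRCm38.p6). Capitals mark GATA with an A or T before it and an A or G after it, searched on both strands, which is the core read by GATA factors, zinc finger proteins known from gastric epithelium. They occurred in 26.5% of all 32851 promoters of this length and in 20 of the 50 promoters found for 37 of the 50 glandular genes. A match describes letters only and shows no binding.
Atp4a (chr7:30711959-30712208, plus strand): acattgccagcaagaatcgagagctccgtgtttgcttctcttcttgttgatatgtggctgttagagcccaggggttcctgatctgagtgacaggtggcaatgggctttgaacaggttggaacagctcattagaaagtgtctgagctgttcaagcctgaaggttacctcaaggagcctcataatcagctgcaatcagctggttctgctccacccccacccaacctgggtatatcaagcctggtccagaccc
Cblif (chr19:11747309-11747558, plus strand): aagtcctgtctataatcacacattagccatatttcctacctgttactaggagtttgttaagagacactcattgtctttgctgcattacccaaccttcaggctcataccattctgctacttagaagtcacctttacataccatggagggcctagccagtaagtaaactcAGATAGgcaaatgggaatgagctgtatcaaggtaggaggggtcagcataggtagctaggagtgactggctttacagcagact
Gkn2 (chr6:87373115-87373364, plus strand): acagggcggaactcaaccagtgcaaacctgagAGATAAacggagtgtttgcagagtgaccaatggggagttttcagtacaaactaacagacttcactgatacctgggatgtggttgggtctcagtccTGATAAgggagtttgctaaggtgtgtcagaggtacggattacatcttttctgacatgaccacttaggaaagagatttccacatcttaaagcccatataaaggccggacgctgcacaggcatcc
The Atp4a window held none of these letters, the Cblif window held 1 match and the Gkn2 window 2, so the genes that divided the mice alike did not share this feature.

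Of the 50 glandular genes listed, 49 were measured and 44 were detected, that is, Cy5 was well above background on at least 0.5 of the arrays of the vehicle or the exposed group. The mice with the 7 lowest Atp4a values were also the 7 lowest for 32 of the 49, and for 26 of these a gap of over 1 separated them from the other mice. In exposed against vehicle mice, 46 of 49 were lower, with a median difference of -1.07 beside 0.00 over all 20018 genes. All 12 parietal cell genes were lower (median -0.80), as were 7 of 9 chief cell genes (-1.64), all 18 surface mucous and neck cell genes (-1.33) and 9 of 10 endocrine genes (-0.67). At an unadjusted limma p under 0.05, 1 of the 49 was lower, against 1.54% of all genes, and 1 was higher, against 1.51%. The lower gene was Slc18a2, the vesicular monoamine transporter, at -0.61 (SE 0.24), and the higher one was Gpr158, at 0.31, which was not well above background on any array.

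The mean log2 ratio of the glandular genes, centred on the mean of the vehicle mice, gave each forestomach a glandular score. It was -2.50, 0.91, 0.72 and 0.87 in the vehicle mice. It was 1.28, -2.37, -2.52, -2.46 and 0.02 at 12.5 mg/kg-bw/day and -2.33, -2.44, 0.66, -1.98 and 0.97 at 25 mg/kg-bw/day. The ranges of the groups overlapped almost entirely. The median difference of the list therefore turned on which vehicle mice were included: it was -1.64 without vehicle mouse 1, when 22 of the 49 genes were lower at an unadjusted p under 0.05, against 2.34% of all genes in that fit, and -0.63 without vehicle mouse 2. The count was 8 of 49 without mouse 6, against 2.88% of all genes, and 24 with array weights, against 3.52%. With the score as a covariate in the limma model, the median of the 49 genes was -0.02, which the construction of the score fixes in large part.

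The most variable genes followed the same division. Over the 14 arrays, 361 genes had an SD over 1 and 83 had an SD over 2. For each of the 20 most variable genes the 7 lowest mice were those lowest in Atp4a, and 11 of the 20 were on the glandular lists. Anxa10, which encodes an annexin of gastric epithelium, had the highest SD of all, 4.47, and ranged from 0.02 to 9.95. The others off the lists included Tspan1 (SD 3.81), Agr2 (3.47), Try4 (3.09) and the simple epithelial keratin genes Krt8 (2.94), Krt19 (2.91) and Krt20 (3.00). Krt8 was -3.43, 1.65, 1.86 and 1.05 in the vehicle mice and ran from -4.29 to 3.05 in exposed mice. Some genes of the exocrine pancreas and hepatocyte lists divided the mice in the same way, and the source of their transcripts was not tested. Clps, which encodes pancreatic colipase, was 2.14, 7.85, 8.02 and 7.85 in the vehicle mice and between 1.89 and 8.15 in exposed mice, with mice 6, 10, 13 and 15 at 6.90 or more and the other 6 at 3.35 or less. Ttr, which encodes transthyretin, was 0.51, 5.57, 4.79 and 5.13 in the vehicle mice and 3.31 or more in the same 4 exposed mice, against at most 0.54 in the others. The exocrine pancreas list had 14 of 19 genes lower (median -0.18), and the hepatocyte list 9 of 12 (median -0.18). The hepatocyte median was -0.61 without mice 8 and 13, -0.51 without mouse 13 alone and 0.04 without vehicle mouse 5. Alb, which encodes serum albumin, was 4.28 in mouse 13 and 0.30 to 2.64 in the other mice.

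Against this variation, no probe was differentially expressed. Taking the thresholds from the study, a false discovery rate (FDR) no higher than 0.05 with a change of 1.5-fold or more, limma called 0 of 55681 probes (0%) in exposed against vehicle mice, and the smallest adjusted p was 1. In the same pooled comparison the Fs statistic used in the study's methods, with 100 shufflings, also called 0. It was not run dose by dose here, whereas the study tested each dose and listed at least 1 lower gene at each of these doses. At an unadjusted p under 0.05, limma gave 1582 probes (2.84%), of which 805 were higher (1.45%) and 777 lower (1.4%), and the Fs statistic gave 1643. Among the brightest probes of 20018 genes, 303 were higher (1.51%) and 309 lower (1.54%); without mice 8 and 13 these were 216 (1.08%) and 304 (1.52%). The fold changes were less balanced than the p-values: 348 genes were lower by at least 1.5-fold (1.74%) and 30 were higher (0.15%). Of these, 48 lower genes (0.24%) and 11 higher genes (0.055%) also had an unadjusted p under 0.05. In 12 genes all 10 exposed mice lay below all 4 vehicle mice (0.0599%), and in 10 genes all lay above (0.05%). With the glandular score as a covariate 0 probes were again called, at a smallest adjusted p of 0.523, with 1970 probes at an unadjusted p under 0.05.

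**Figure D2:**
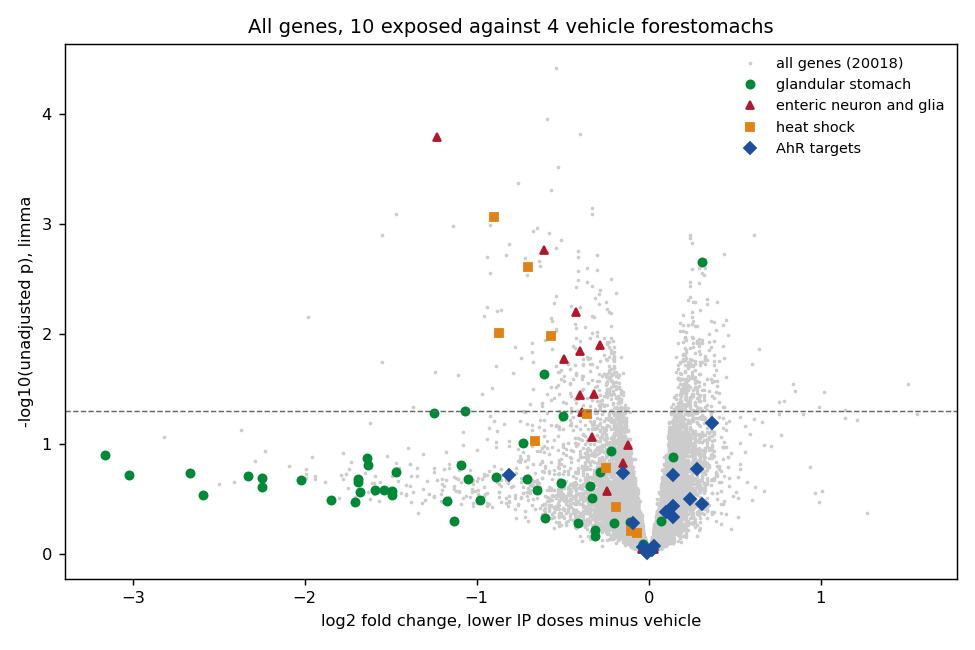
Difference in log2 ratio (exposed minus vehicle, x axis) against -log10 of the unadjusted p-value (y axis) for the brightest probe of each of 20018 genes, with 4 gene lists marked and a dashed line at the 0.05 level. The glandular genes reach the largest negative differences with p-values mostly above 0.05, whereas enteric neuron and heat shock genes lie higher at smaller differences.

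The doses gave the same count of calls. At 12.5 mg/kg-bw/day 0 probes were called by limma (0%), at a smallest adjusted p of 0.991, with 1909 at an unadjusted p under 0.05 (3.43%; 932 higher, 1.67%, and 977 lower, 1.75%). At 25 mg/kg-bw/day 0 were called (0%), with 1705 at an unadjusted p under 0.05 (3.06%; 968 higher, 1.74%, and 737 lower, 1.32%), and the doses share the vehicle mice. Between the doses, which share no mice, 0 were called (0%), at a smallest adjusted p of 0.817, and 3315 probes had an unadjusted p under 0.05 (5.95%), of which 2175 were higher at 25 mg/kg-bw/day (3.91%) and 1140 lower (2.05%). Among the 20018 genes, 324 were higher at 12.5 mg/kg-bw/day (1.62%), 430 at the higher dose (2.15%), and between the doses 1131 were higher (5.65%) and 387 lower (1.93%). The glandular list median was -1.28 at 12.5 mg/kg-bw/day and -0.85 at 25 mg/kg-bw/day, and 0 of its genes had an unadjusted p under 0.05 between the doses. The median of the gene-by-gene differences between the doses was 0.14 for the glandular list, 0.35 for smooth muscle and fat cells, 0.38 for hepatocytes and 0.44 for mesothelium, beside 0.03 over all genes. The count of 3315 ran from 2116 without mouse 7 to 5798 without mouse 6, with 5600 without mouse 9 and 2163 without mouse 10, and was 611 after median centring. At 12.5 mg/kg-bw/day the count of 1909 was 5103 without mouse 6, 3428 without vehicle mouse 1, 3231 without mouse 9 and 472 after median centring.

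**Figure D3:**
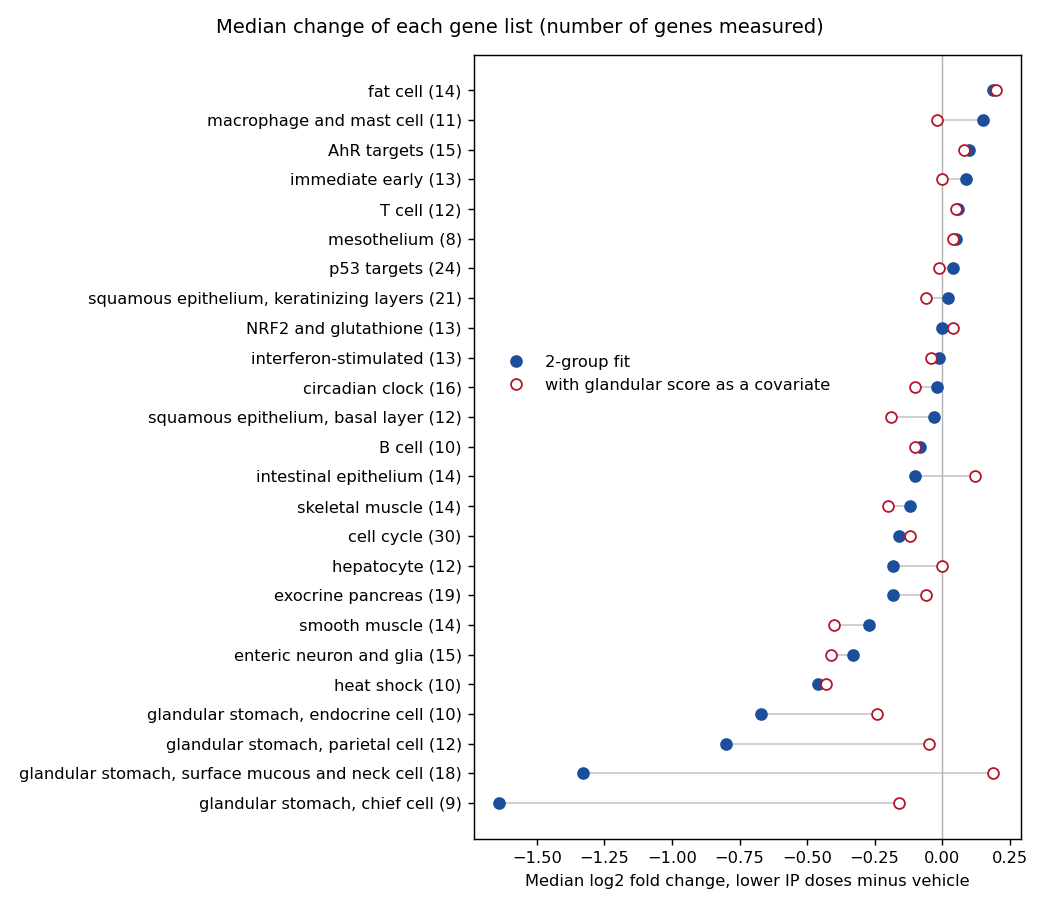
Median log2 fold change (exposed minus vehicle) of each gene list, with the number of genes measured, from the model with the groups alone (filled circles) and with the glandular score as a covariate (open circles). The 4 glandular lists lie lowest and move towards 0 with the covariate, while the enteric neuron and heat shock lists lie between -0.33 and -0.46 in either model (centring arrays on their median moves the heat shock median to -0.05).

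Genes of the enteric nervous system gave the list with the most low p-values. All lists were chosen with earlier results of these data known, so the counts describe the list and do not test it. Of 15 neuron and glia genes, 14 were lower in exposed mice and 8 had an unadjusted limma p under 0.05, against 1.54% of all genes; the median difference was -0.33. The mean of the list was 0.07, -0.08, -0.16 and 0.17 in the vehicle mice and ran from -0.65 through a median of -0.34 to -0.06 in exposed mice. All 10 exposed mice lay below the vehicle mean and 9 of them below the lowest vehicle mouse. The within-slide differences were -0.20, -0.32, -0.36 and -0.43. The list median was -0.40 at 12.5 mg/kg-bw/day (7 genes at an unadjusted p under 0.05, against 2.16% of all genes) and -0.25 at 25 mg/kg-bw/day (3 genes, against 1.26%). With the glandular score as a covariate it was -0.41 and 10 genes had an unadjusted p under 0.05, against 2.68% of all genes. Without mice 8 and 13 it was -0.35 with 7 genes, against 1.52%. The count was 5 of 15 after median centring, against 0.829% of all genes, 5 of 15 from Cy5 alone, against 1.38%, and 3 of 15 without vehicle mouse 5, against 1.13%.

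Vip encodes vasoactive intestinal peptide, a transmitter of inhibitory motor and secretomotor neurons. It was 3.73, 4.34, 2.99 and 3.86 in the vehicle mice. It was 3.47, 2.44, 1.87, 2.32 and 2.60 at 12.5 mg/kg-bw/day and 2.65, 2.33, 2.09, 2.53 and 2.67 at 25 mg/kg-bw/day. Mouse 6 was the only exposed mouse above the lowest vehicle mouse, vehicle mouse 3. The means were 3.73 ± 0.56 (SD, n = 4) and 2.50 ± 0.43 (SD, n = 10), and the difference of -1.23 (SE 0.25, 95% interval -1.76 to -0.71) was a 2.35-fold lower level (exact permutation test, two-sided, p = 0.002). Leaving out each mouse in turn gave -1.48 to -1.03, the covariate gave -1.11, Cy5 alone gave -0.66 and the scanner's log ratio gave -2.26. Vip was not called after adjustment over all probes. It was named for its low limma p, so the permutation p comes from the values that chose it and is no independent support. The same holds for the other genes named below for their low p-values. The Vip promoter is shown because the gene has the lowest p-value of the list; capitals mark TGACGTC, the core of a cAMP response element, through which cAMP is known to induce this gene. On either strand these letters occurred in 2.78% of all promoters of 250 bases, and here the match began at -79 from the transcription start (RefSeq, GRCm38.p6).
Vip (chr10:5638968-5639217, plus strand): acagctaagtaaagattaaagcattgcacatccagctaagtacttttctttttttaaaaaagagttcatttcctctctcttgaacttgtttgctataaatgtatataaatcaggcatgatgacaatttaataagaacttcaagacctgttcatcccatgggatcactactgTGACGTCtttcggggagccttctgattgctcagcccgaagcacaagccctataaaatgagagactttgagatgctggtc

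Other neuronal genes were lower in most exposed mice. Slc5a7, the choline transporter of cholinergic neurons, was 1.95, 1.66, 1.14 and 1.80 in the vehicle mice and 0.51 to 1.35 in exposed mice, a difference of -0.76 (SE 0.17, exact permutation p = 0.003), although its other probe gave -0.20. Syt1, the calcium sensor of synaptic vesicles, was 2.93, 2.14, 2.10 and 2.98 in the vehicle mice and 0.64 to 2.35 in exposed mice, a difference of -1.14 (SE 0.28, exact permutation p = 0.00599). Prph, which encodes the neuronal intermediate filament peripherin, was 2.04, 1.47, 1.70 and 1.98 in the vehicle mice and 0.75 to 1.66 in exposed mice (-0.61, SE 0.16, exact permutation p = 0.004). In each of these genes only 1 or 2 exposed mice reached the vehicle range. Gal, which encodes the neuropeptide galanin, differed by -0.65 (SE 0.16, exact permutation p = 0.003). Pcp4, a calmodulin-binding protein gene, was 3.68, 3.79, 3.69 and 4.10 in the vehicle mice and 1.12 to 3.68 in exposed mice, with every exposed mouse below every vehicle mouse before rounding; the difference was -1.47 (SE 0.35, exact permutation p = 0.003), or 2.76-fold lower. Fam78b was 0.70, 0.34, 0.56 and 0.85 in the vehicle mice and -0.26 to 0.31 in exposed mice without overlap (-0.59, SE 0.11), at the smallest p the exact permutation test allows, 0.000999. It was well above background in 5 of 10 exposed mice.

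Smaller differences were measured for Elavl4 (-0.42), Uchl1 (-0.49), Tubb3 (-0.40) and Stmn2 (-0.32), all neuronal, and for the glial gene Gfap (-0.28, from 0 to -0.36 among its 3 probes). The glial genes S100b (-0.33) and Sox10 (-0.04) and the neuronal genes Ret (-0.39) and Snap25 (0.03) had an unadjusted limma p of 0.05 or above. Chat and Nos1, which mark excitatory and inhibitory motor neurons, were not well above background on enough arrays to be detected. Smooth muscle genes, from the wall that holds the plexuses, were lower in 11 of 14 cases with a median of -0.27 (0.08 after median centring, beside 0.13 over all genes), and 1 had an unadjusted p under 0.05 (Tagln, an actin-binding protein gene, -0.45). Their mean score was -0.25 to 0.29 in vehicle mice and -0.88 to 0.29 in exposed mice, and 5 of 10 exposed mice lay below the lowest vehicle mouse. The part of the muscle wall content of the sections in the neuronal values was not tested.

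**Figure D4:**
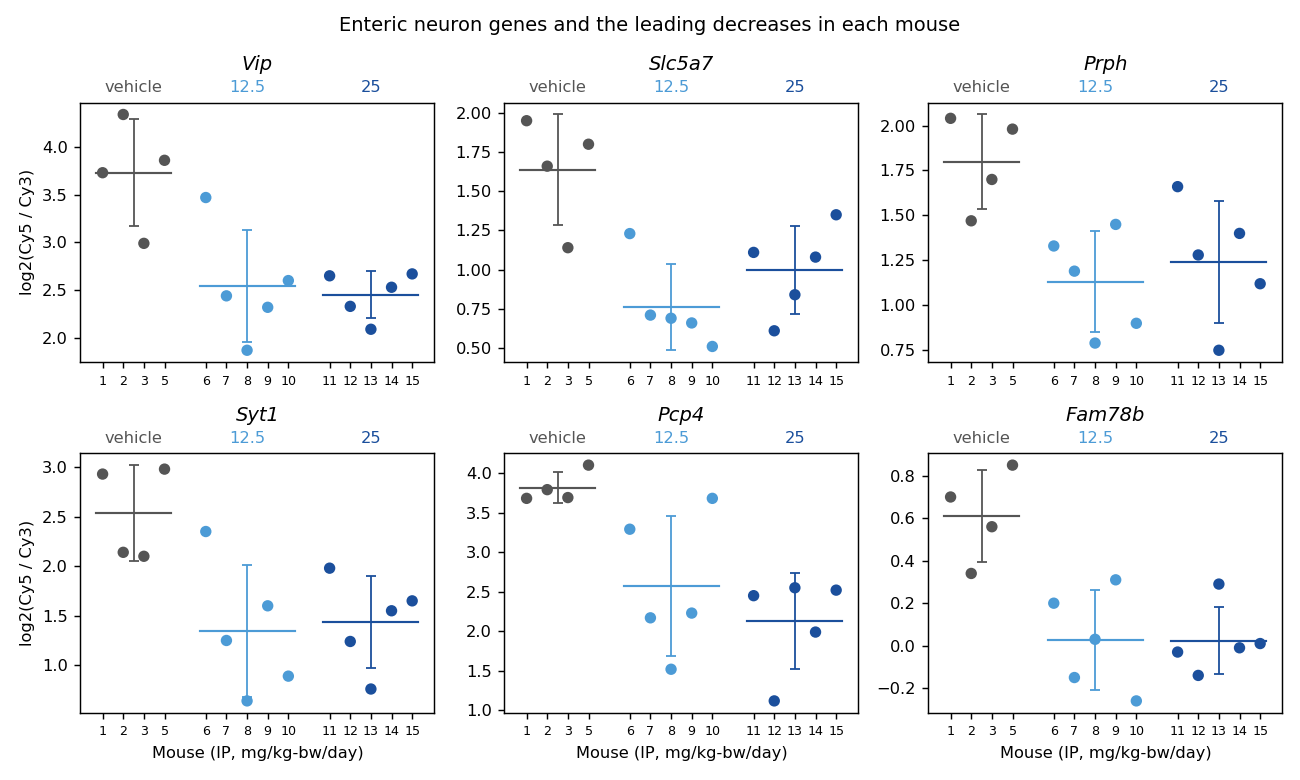
Log2 ratio of Vip, Slc5a7, Prph, Syt1, Pcp4 and Fam78b in each mouse (points), with the mean (line) and SD (bar) of each group (4 vehicle mice, then 5 at each dose in mg/kg-bw/day). The exposed means lie below the vehicle mean in each gene, and mouse 6 is the highest exposed mouse in Vip and Syt1.

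The remaining genes among the 10 decreases with the smallest p-values were Dnaja1, 6330403K07Rik, Wif1 and Tnnt3. Wif1, which encodes a secreted inhibitor of Wnt signalling, differed by -0.67 (SE 0.17, exact permutation p = 0.003) and 6330403K07Rik by -0.92 (SE 0.23, exact permutation p = 0.003). Tnnt3, the fast skeletal troponin T gene, was 1.47, 1.29, 1.74 and 0.04 in the vehicle mice, and among exposed mice mouse 13 stood at 1.32 and the other 9 between -1.04 and 0.37. Its difference of -1.55 (SE 0.39) was not shared by the skeletal muscle list, whose median was -0.12 with 9 of 14 genes lower.

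Heat shock genes were lower as a group in the loess-normalised data. All 10 were also lower from Cy5 alone and from the scanner's log ratio, but 5 of 10 were higher when arrays were centred on their median instead. All 10 measured chaperone genes were lower in exposed mice, 4 of them at an unadjusted limma p under 0.05, against 1.54% of all genes, with a median of -0.46 (-0.55 at the first dose and -0.40 at the second). Dnaja1, which encodes a co-chaperone of HSP70, was 0.39, 0.99, -0.19 and -0.03 in the vehicle mice. It was -0.11, -0.69, -0.75, -0.75 and -0.45 at 12.5 mg/kg-bw/day and -1.14, -0.81, -0.16, -0.98 and -0.26 at 25 mg/kg-bw/day. Mice 6 and 13 reached the vehicle range, whose highest values were those of mice 1 and 2, and the difference was -0.90 (SE 0.22, exact permutation p = 0.003), although its other probe gave -0.32. Hsp90aa1, the inducible HSP90 gene, was 0.86, 0.93, -0.05 and 0.29 in the vehicle mice and -0.74 to 0.26 in exposed mice (-0.70, SE 0.19, exact permutation p = 0.00699). Hsph1, an HSP70 nucleotide exchange factor gene, was 1.56, 2.00, 0.22 and 0.70 in the vehicle mice and -0.26 to 1.07 in exposed mice (-0.87, SE 0.29, exact permutation p = 0.019), so vehicle mice 1 and 2 again stood highest. Hspa8, the constitutive HSP70 gene, differed by -0.57 (SE 0.19). The count of 4 became 2 without vehicle mouse 2, against 1.91% of all genes, and 6 without vehicle mouse 3, against 1.78%. Centring each array on its median in place of loess shifted the median of all genes to 0.13; then 5 of the 10 were lower (7 relative to that shift), the list median was -0.05 and 0 had an unadjusted limma p under 0.05.

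Krt6a and Krt6b encode type II keratins of squamous epithelium that are known to be induced in wounded or hyperproliferative skin. Krt6a was 3.08, 3.14, 3.32 and 3.35 in the vehicle mice. It was 3.29, 0.25, 0.01, 0.29 and 1.69 at 12.5 mg/kg-bw/day and 0.21, 0.19, 2.68, 0.47 and 3.37 at 25 mg/kg-bw/day. The vehicle mice lay close together, while the exposed mice spread from 0.01 to 3.37, with mice 6, 13 and 15 near the vehicle level. The means were 3.22 ± 0.14 (SD, n = 4) and 1.25 ± 1.38 (SD, n = 10), a difference of -1.98 (SE 0.63) or 3.94-fold (exact permutation test, two-sided, p = 0.027). Within the slides the differences were -1.33, -2.91, -0.79 and -2.97. The 4 exposed mice with the highest Krt6a, mice 6, 10, 13 and 15, were those high in Atp4a, but vehicle mouse 1, with an Atp4a of 0.02, had a Krt6a of 3.08. With the glandular score as a covariate the difference was -1.27, at an unadjusted limma p of 0.0017 and an adjusted p of 1. Krt6b was 7.74, 7.46, 7.88 and 8.08 in the vehicle mice and 5.05 to 7.93 in exposed mice, a difference of -1.11 (SE 0.44, exact permutation p = 0.042). These were the 2 of 21 keratinizing-layer genes at an unadjusted limma p under 0.05, and Krt1 (0.07, SE 0.23) and Krt10 (0.14, SE 0.21), keratins of the upper layers, differed by less than the spread between mice.

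**Figure D5:**
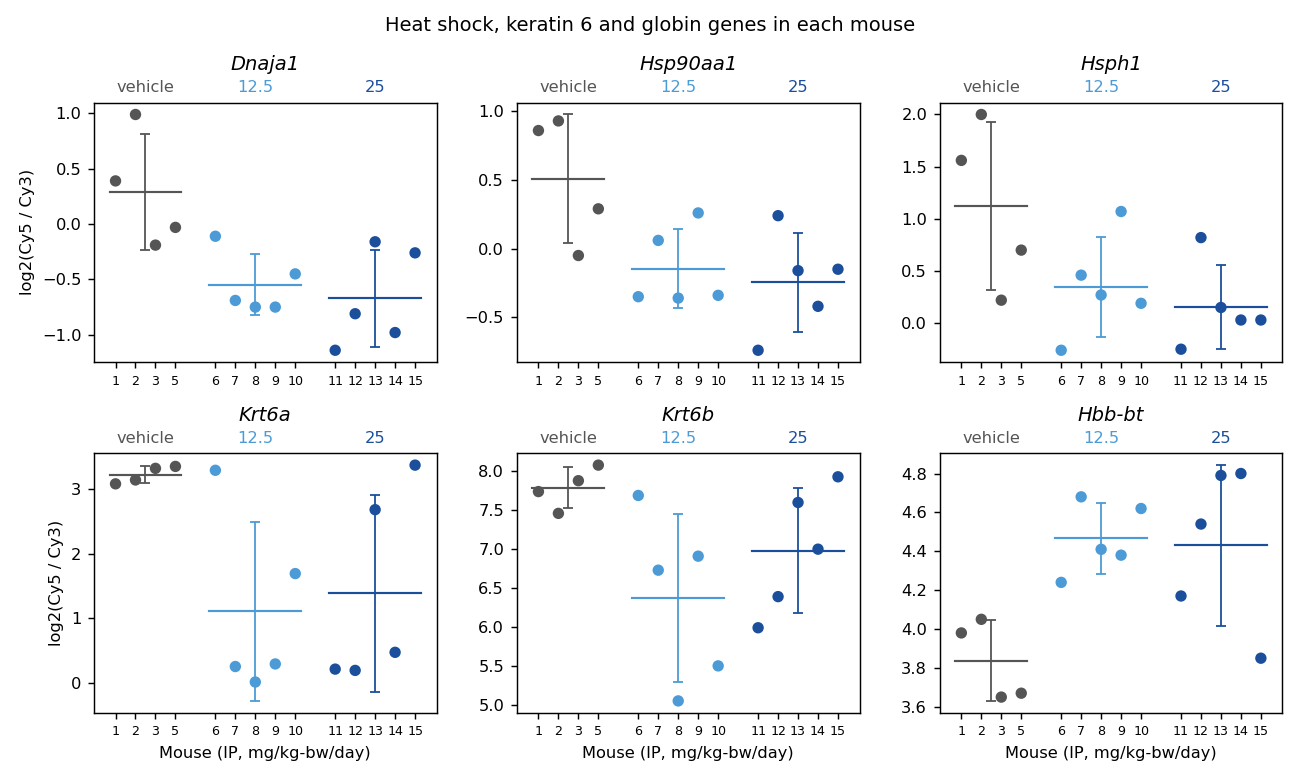
Log2 ratio of Dnaja1, Hsp90aa1, Hsph1, Krt6a, Krt6b and Hbb-bt in each mouse (points), with the mean (line) and SD (bar) of each group (4 vehicle mice, then 5 at each dose in mg/kg-bw/day). The 4 vehicle mice lie between 3.08 and 3.35 in Krt6a, exposed mice between 0.01 and 3.37.

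Among the increases, which also went uncalled, an adult beta-globin gene had the lowest p. Hbb-bt was 3.98, 4.05, 3.65 and 3.67 in the vehicle mice. It was 4.24, 4.68, 4.41, 4.38 and 4.62 at 12.5 mg/kg-bw/day and 4.17, 4.54, 4.79, 4.80 and 3.85 at 25 mg/kg-bw/day. Mouse 15 alone among the exposed lay within the vehicle range, and the difference was 0.61 (SE 0.15, exact permutation p = 0.005). Hbb-b2, a near copy of it whose probe may share targets, differed by 0.85 (SE 0.36), a value that became 0.25 without vehicle mouse 5, which had 1.23 against 3.06 to 4.09 in the other vehicle mice. The part of blood content of the sections in these values was not tested.

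Genes of spermatids, which pack sperm chromatin, had the largest differences among these increases. Prm2, a protamine gene, was -0.68, 0.05, -1.01 and -1.04 in the vehicle mice. At 12.5 mg/kg-bw/day it was -0.42, 1.66, 0.85, 0.32 and -0.19. It was 3.13, -0.59, 1.40, -0.38 and 2.64 at 25 mg/kg-bw/day, and the difference over both doses was 1.51 (SE 0.62, exact permutation p = 0.047). Tnp1, which encodes a transition protein, was 0.04 to 0.57 in the vehicle mice and 0.27 to 3.86 in exposed mice, again with mouse 11 highest (1.14, SE 0.53). In Prm2, mice 7, 8, 9, 11, 13 and 15 lay above the highest vehicle mouse and the other 4 exposed mice did not. A source of such transcripts outside the forestomach was not tested.

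Dbp, a transcription factor gene driven by the circadian clock, was -3.09, -1.72, -2.33 and -2.80 in the vehicle mice. It was -2.55, -1.45, -0.81, -1.91 and -2.44 at 12.5 mg/kg-bw/day and -0.39, -1.22, -1.80, 0.13 and -2.15 at 25 mg/kg-bw/day, a difference over both doses of 1.02 (SE 0.44), with mice 11 and 14 highest. Nfil3, a repressor that binds the same sites as Dbp, differed by -0.54 (exact permutation p = 0.022), and Nr1d1, a clock repressor, by 0.76 (exact permutation p = 0.0829). The clock list as a whole had 7 of 16 genes higher and a median of -0.02. The time of day at which tissues were taken is not given in the sources used here. The other increases were Hal, a histidine-degrading enzyme of squamous epithelium (0.99, SE 0.45), Lrrc17 (0.84, SE 0.35), Bcl2l15 (0.79, from 0.03 to 0.79 among its 3 probes), Syce1 (0.76, SE 0.34) and Pcnx2 (0.60, SE 0.23).

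The pathways that PAHs are known to activate showed no differentially expressed gene. Of 15 genes on the AhR target list, which also holds the receptor gene Ahr and its partner gene Arnt, 10 were higher and 5 lower. The median was 0.10, and 0 had an unadjusted limma p under 0.05. After median centring the median was 0.36, beside 0.13 over all genes, and 2 of 15 were lower (3 relative to that shift). In that setting 1 of the 15 had an unadjusted limma p under 0.05 and was higher, beside 849 of all 55681 probes in either direction. Cyp1a1, the classical AhR target, was 0.09, -0.25, 0.16 and 0.01 in the vehicle mice. It was 0.16, 0.35, 0.69, -0.14 and -0.09 at 12.5 mg/kg-bw/day and 1.10, 0.33, 0.49, 0.01 and -0.09 at 25 mg/kg-bw/day. It was not well above background in any vehicle mouse and was so in 4 of 10 exposed mice. The exposed mice included mouse 8, whose array had 81.2% of all probes well above background, against 43 to 58.9% on slides with a vehicle array. The measured Cyp1a1 difference was 0.28 (SE 0.19, 95% interval -0.13 to 0.69), an interval that includes 0. With vehicle signals raised to at least the dimmest detected signal of their array, the exposed mean was 1.03-fold higher, which sets no minimum increase. Mouse 11, at 1.10, had the highest value, and the groups overlapped. Ahrr, the AhR repressor gene, was 0.38, 0.18, -0.05 and 0.09 in the vehicle mice and -0.22 to 0.98 in exposed mice, a difference of 0.37 (SE 0.19, 95% interval -0.02 to 0.77), while its other probe gave 0.01. Cyp1b1 differed by 0.14 (SE 0.19) and Nqo1, an oxidoreductase gene shared with the NRF2 pathway, by -0.01 (SE 0.27). Gsta1, a glutathione transferase gene, was lower by 0.81 (SE 0.59), and its 7 lowest mice were again those low in Atp4a, from 3.70 to 4.77 against 6.02 to 6.44.

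Among 24 p53 targets, 14 were higher and 10 lower, with a median of 0.04. After median centring the median was 0.23, beside 0.13 over all genes, and 2 of 24 were lower (6 relative to that shift). In the loess-normalised data the only one at an unadjusted limma p under 0.05 was Trp53inp1, which encodes a stress-induced p53 partner (0.33, SE 0.15). Cdkn1a, the p21 cell cycle inhibitor gene, differed by -0.12 (SE 0.08) and Mdm2, which encodes the ligase that degrades p53, by -0.13 (SE 0.09). Of 30 cell cycle genes 27 were lower, with a median of -0.16 and 0 at an unadjusted limma p under 0.05; Mki67, the proliferation marker, was -2.58 to -1.79 in the vehicle mice and -3.48 to -1.69 in exposed mice (-0.54, SE 0.27). After median centring the cell cycle median was 0.10, so 20 of 30 were lower relative to the shift of all genes. The NRF2 and glutathione list had a median of 0.00, the interferon-stimulated list -0.01 and the immediate early list 0.09. After median centring these lists had medians of 0.25, 0.15 and 0.28. Within them, Isg15, a ubiquitin-like interferon-stimulated gene, differed by -0.57 (exact permutation p = 0.019).

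Markers of other cells differed little as lists. The medians were -0.08 for B cells, 0.06 for T cells, 0.15 for macrophages and mast cells, 0.05 for mesothelium and 0.19 for fat cells, with 0 genes at an unadjusted limma p under 0.05 in each. The fat cell score, centred on the vehicle mean, was -0.18 to 0.15 in vehicle mice and -0.48 to 1.40 in exposed mice. Adipoq, which encodes the fat cell hormone adiponectin, was 1.96, 0.19, 0.07 and 0.12 in the vehicle mice. It was -0.23, 0.07, 3.04, -0.16 and 3.90 at 12.5 mg/kg-bw/day and 3.28, 1.90, -0.02, 4.12 and 0.05 at 25 mg/kg-bw/day. In the exocrine pancreas list, Cel, which encodes bile salt-activated lipase, was 1.62, 1.27, 1.58 and 1.69 in the vehicle mice and 0.65 to 1.46 in exposed mice (-0.57, SE 0.13, exact permutation p = 0.002), and it did not follow the division seen in Clps.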

How the data were processed

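RNA from 14 forestomachs was measured on 2-colour Agilent mouse arrays. The authors scanned the arrays and deposited the output of Feature Extraction 10.7.3.1, of which the median Cy5 and Cy3 signal intensities, the local background medians, the flags and the log10 ratio of processed signals were used. They also deposited a table of log2 ratios, whose columns correlated at 0.9967 to 0.9994 with the ratios computed here (column medians -0.0499 to -0.0112). From the intensities, log2(Cy5/Cy3) was computed without background subtraction for 59305 non-control spots, outlier spots were left out, loess was applied within each array and spots were averaged to 55681 probes (R 4.3.3, limma 3.58.1, data.table, version 1.17.8, statmod 1.5.0). Between arrays, Pearson's r over probes was 0.742 to 0.967, no non-control spot was saturated, and 133 probes lacked a value on 1 or more arrays. The number of arrays limits the precision.

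RefSeq accessions named 26413 probes and 20018 genes (GRCm38.p6), and the brightest probe stood for a gene. The main limma model held exposed and vehicle mice as 2 groups, and the doses came from a 3-group model; tests were two-sided, with Benjamini-Hochberg adjustment over all probes. Single genes were also tested by exact permutation over all 1001 splits of the mice into 10 and 4, for which the smallest p is 0.000999. The fitting and calling steps were run on simulated arrays with normal noise, capped SDs and changes placed in the less variable probes. That simulation did not cover genes as variable as the glandular ones. Named genes were the 10 increases and 10 decreases with the lowest p among detected genes past 1.5-fold (none called), the 20 most variable genes, the glandular genes, and from other lists members past 1.5-fold with an unadjusted p under 0.05 or up to 4 of the brightest members. List members given as examples beyond this rule, and genes such as Nfil3, Nr1d1, Cyp1a1, Ahrr, Krt13 and Trp53inp1, were picked for their role or value after values were seen. The comparison and the lists were chosen with earlier results of these data known, and lists were described by counts and medians without a test. Alternatives changed the background correction, normalization, channel, filters, model, covariates and mice included. The 50 mg/kg-bw/day group entered a 4-group alternative only. Some members of the neuron and glia list are counted in it but not reported singly here.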

Additional observations from a re-analysis of the deposited data

Results flagged for a closer look

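In groups of 4 to 10 mice, 12 of 184 values stood apart from the rest of their group by Dixon's criterion at 95%, which chance meets in about 1 of 20 groups. Vehicle mouse 1 stood below the other vehicle mice in all glandular scores: -2.50 over all glandular genes against 0.72 in the nearest mouse, -2.35 against 0.67 for parietal cells, -3.07 against 0.88 for chief cells, -3.15 against 0.93 for surface mucous and neck cells and -1.0 against 0.25 for endocrine cells. The score over all glandular genes contains the members of the others. The cell type scores share no members but come from the same arrays, so these values count as 1 pattern.

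Mouse 13 stood above the other 9 exposed mice in the hepatocyte score (1.73 against -0.04), and above the other mice at 25 mg/kg-bw/day in the immediate early score (0.34 against -0.03) and in Tnnt3 (1.32 against -0.71). Mouse 6 stood above the other exposed mice in Vip (3.47 against 2.67) and above the others at 12.5 mg/kg-bw/day in Slc5a7 (1.23 against 0.71). Mouse 15 stood below the other exposed mice in Hbb-b2 (3.22 against 3.67) and below the others at 25 mg/kg-bw/day (3.89).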

How the results depend on the processing

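In exposed against vehicle mice 0 probes passed both thresholds in limma and in the Fs alternative under all settings with those thresholds, and the count at an unadjusted p under 0.05 ranged from 518 (dim probes left out) to 3195 (array weights) around 1582. The smallest adjusted limma p in that comparison was 0.0775 with the scanner's log ratio and 0.212 without mouse 13. With unadjusted p under 0.05 and 1.2-fold as thresholds, the counts were 499 (pooled), 1013 (12.5 mg/kg-bw/day), 836 (25 mg/kg-bw/day) and 2190 (between doses). At the thresholds of the study, leaving out 1 mouse gave 0 calls throughout. At an unadjusted p under 0.05 the probes numbered 472 to 5103 at 12.5 mg/kg-bw/day, 764 (Cy5 alone) to 2259 (without mouse 15) at 25 mg/kg-bw/day and 611 to 5798 between doses. No paired analysis was possible because the groups compared share no mouse numbers; slide as a block gave 0 calls, and its list medians equal those without mice 8 and 13, whose slide holds no vehicle array. The 10 increases and 10 decreases with the lowest p-values kept their direction in all 580 recomputed values, but their size moved: Vip lay between -2.26 and -0.66, Fam78b between -1.35 and -0.39 and 6330403K07Rik between -1.78 and -0.39. Of the list medians, 19 moved by more than the spread between mice and 683 did not. The glandular genes lower at an unadjusted limma p under 0.05 numbered 1 of 49, against 1.54% of all genes. They numbered 22 without vehicle mouse 1, against 2.34% of all genes in that fit, and the cause was not tested.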
